A study of Mus musculus with 37 samples.

Results

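The genes described here code for the secreted and membrane proteoglycans, link proteins and tenascins of the brain's perineuronal nets and loose matrix. They are Acan, Bcan, Ncan, Vcan, Hapln1, Hapln4, Tnr, Tnc and Ptprz1, and they were taken by symbol. The 9 genes are 9 of 56980 rows of the count table, and all 9 were among the 19332 genes that passed the filter on low counts. The mice were wild-type males of the C57BL/6J strain, and polyadenylated RNA was sequenced. Each library is labelled as brain with all cell types, and medial prefrontal cortex appears as the region in the title of the series. Adult mice entered the study from postnatal day 55 and adolescent mice from postnatal day 25. Mice of each age drank antibiotics or water and received subcutaneous morphine at 15 mg/kg or saline for 5 days. The antibiotic agents are not named in the sources used here. The 8 groups held, in adult mice, 4 libraries with antibiotics and morphine, 5 with antibiotics and saline, 5 with water and morphine and 3 with water and saline. In adolescent mice they held 5 with antibiotics and morphine, 3 with antibiotics and saline, 5 with water and morphine and 5 with water and saline. The labels number the replicates without saying whether each is a separate animal, so p-values measure the spread between these libraries.

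Perineuronal nets are lattices of hyaluronan and chondroitin sulfate proteoglycans that wrap the soma and proximal dendrites of many neurons, most of all parvalbumin interneurons in cortex. Hyaluronan chains are the backbone, the lecticans aggrecan (Acan), brevican (Bcan), neurocan (Ncan) and versican (Vcan) bind to them, link proteins (Hapln1, Hapln4) lock that bond, and tenascin-R (Tnr) crosslinks the lecticans at their other end. Nets form during postnatal development, and their completion accompanies the closing of critical periods of plasticity. Tenascin-C (Tnc) is the tenascin of the immature brain, and Ptprz1 is a receptor tyrosine phosphatase of glia whose extracellular splice form is the matrix proteoglycan phosphacan.

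The 35 libraries used had totals of 10630727 to 31560468 counts, with a median of 15910823. Libraries of 25165 and 58764 counts, one adolescent with antibiotics and saline and one adult with antibiotics and morphine, were left out. Markers of excitatory cortical neurons were present in every library, with a summed level of 3853 to 6858 counts per 1000000 (CPM). Replicate 1 of the adolescent water and saline group stood apart. Its striatal neuron markers summed to 1731 CPM and its mature oligodendrocyte markers to 20460 CPM, against at most 265 and 6811 CPM in the other 34 libraries. Its counts differed from those of its group by a chi-square of 38.1 to 65.0 per gene. Replicate 2 of the adult antibiotics and saline group also stood apart, by 34.4 to 54.0 per gene, against 3.97 to 13.5 among the other 4 libraries of that group. Its striatal neuron markers summed to 239 CPM and its mature oligodendrocyte markers to 1741 CPM. Transcripts of pancreatic islet hormones, with 513 to 1134 counts, were present in 7 libraries, all of them adolescent, and at 11 counts or fewer in the other 28.

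Per kilobase of exon, Bcan had the highest mean level of the 9 genes over the 35 libraries, at 43.5 ± 4.14 CPM per kb (SD, n = 35). Ncan followed at 39.1 ± 4.87 and Hapln4 at 32.7 ± 5.58 CPM per kb, and the ranges of the 3 over the libraries overlapped. Tnr stood at 16.9 ± 1.22 and Ptprz1 at 11.8 ± 1.35 CPM per kb. Hapln1, at 3.66 ± 0.614 CPM per kb, was lower than both in every library. Vcan was at 1.28 ± 0.264, Acan at 0.340 ± 0.0650 and Tnc at 0.281 ± 0.141 CPM per kb. The ranges of Acan and Tnc over the libraries overlapped, at 0.178 to 0.466 and 0.113 to 0.867 CPM per kb. Acan, whose protein is a marker of nets, was thus among the least abundant of the 9 transcripts in this tissue.

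**Figure D1:**
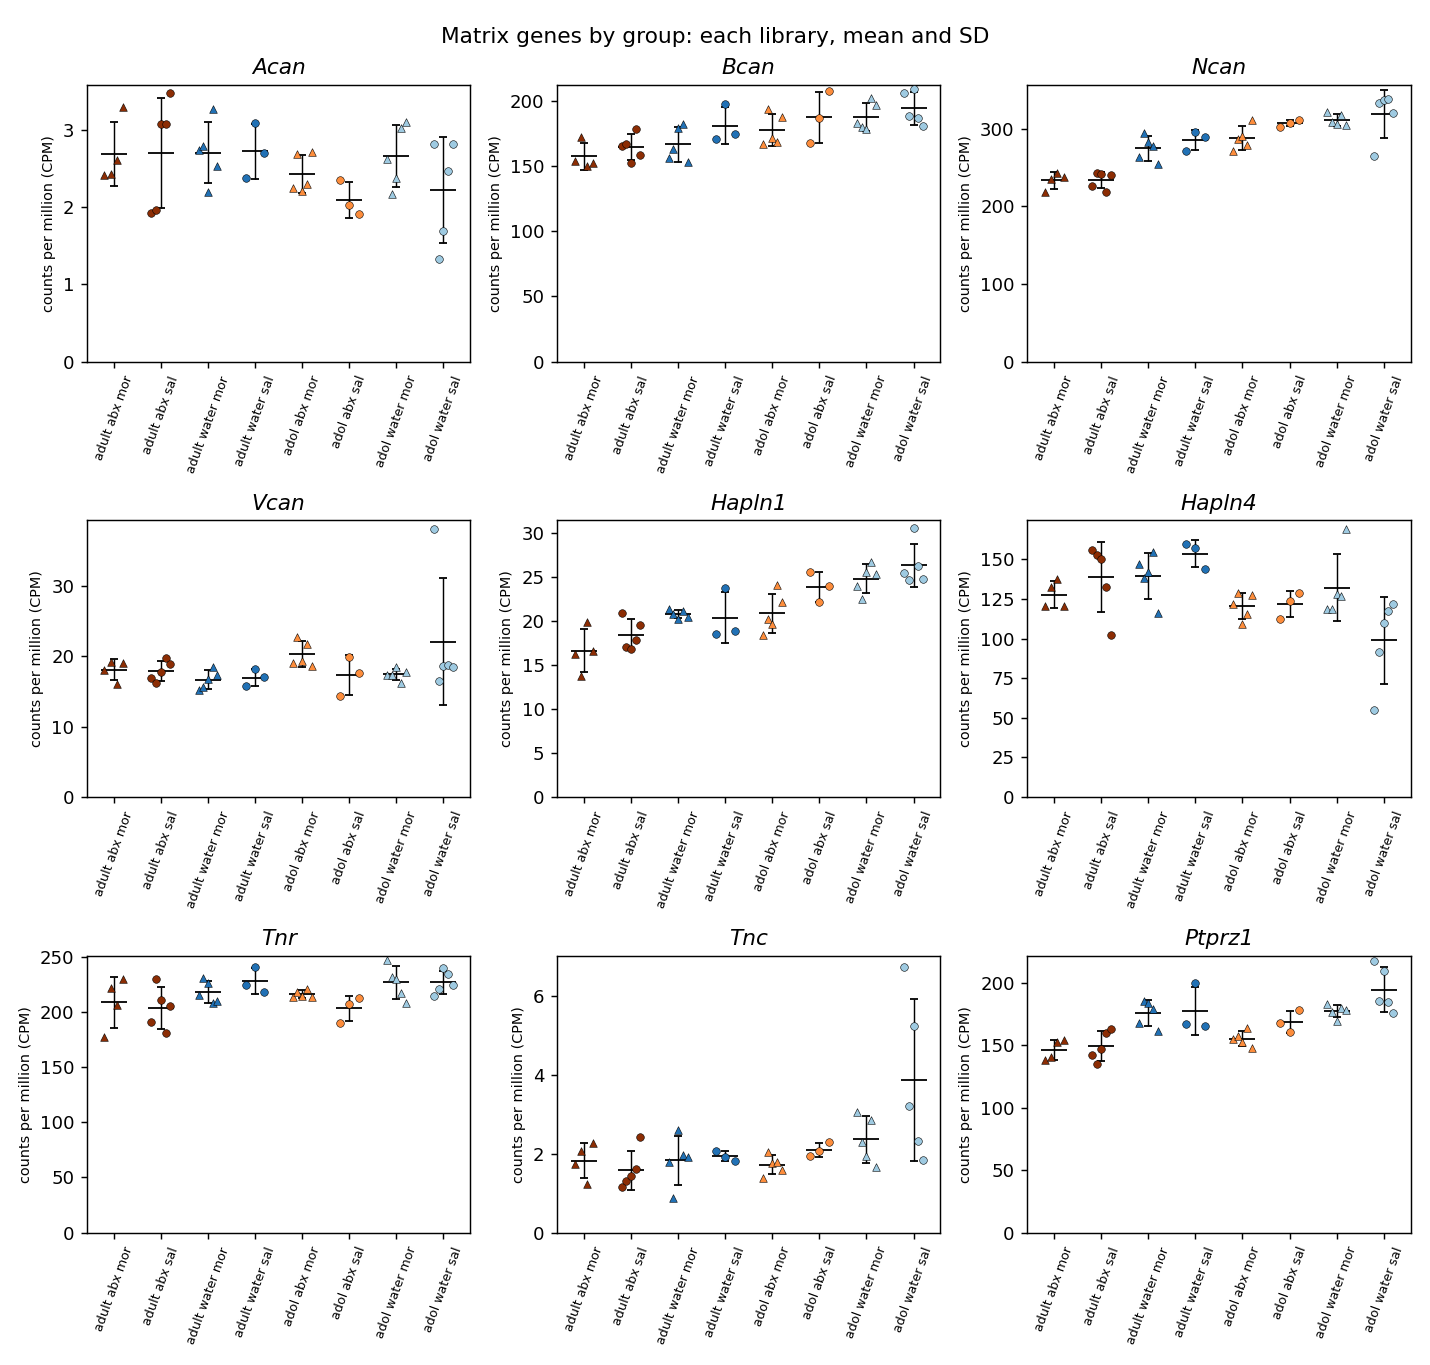
CPM of the 9 genes (y axes, linear, from 0) in each library of the 8 groups (x axes; adol, adolescent; abx, antibiotics; mor, morphine; sal, saline), with the group mean and SD in black. Triangles are morphine and circles saline. Ncan lies between 218 and 243 CPM in adults given antibiotics, below all other libraries, which overlap between groups, and Vcan of 1 adolescent water and saline library sits at 38.0 CPM, above all other libraries.

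Ncan, Hapln1 and Ptprz1 were lower both in adult mice and in mice given antibiotics, and their promoters are shown for that reason. Each window runs from 250 bases before to 50 bases after the annotated start (RefSeq, GRCm38.p6, the assembly known as mm10), is written in the direction of the gene and has in capitals every GC box, GGGCGG on either strand. Windows were found for 8 of the 9 genes.
The Ncan window is chr8:70120795-70121094 on the minus strand, Hapln1 is chr13:89540386-89540685 on the plus strand, and Ptprz1 is chr6:22875252-22875551 on the plus strand.
Ncan: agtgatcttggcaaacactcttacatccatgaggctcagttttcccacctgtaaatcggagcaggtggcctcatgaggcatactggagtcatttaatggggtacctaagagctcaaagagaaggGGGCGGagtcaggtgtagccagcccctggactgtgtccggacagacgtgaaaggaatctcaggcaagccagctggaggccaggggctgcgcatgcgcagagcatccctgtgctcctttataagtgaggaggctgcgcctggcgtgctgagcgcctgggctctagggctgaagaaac
Hapln1: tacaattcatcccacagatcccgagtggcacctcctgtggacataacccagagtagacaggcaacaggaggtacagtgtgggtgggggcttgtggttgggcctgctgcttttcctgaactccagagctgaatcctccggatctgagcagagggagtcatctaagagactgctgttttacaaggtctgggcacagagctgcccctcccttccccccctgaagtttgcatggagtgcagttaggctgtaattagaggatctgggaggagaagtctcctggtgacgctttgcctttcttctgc
Ptprz1: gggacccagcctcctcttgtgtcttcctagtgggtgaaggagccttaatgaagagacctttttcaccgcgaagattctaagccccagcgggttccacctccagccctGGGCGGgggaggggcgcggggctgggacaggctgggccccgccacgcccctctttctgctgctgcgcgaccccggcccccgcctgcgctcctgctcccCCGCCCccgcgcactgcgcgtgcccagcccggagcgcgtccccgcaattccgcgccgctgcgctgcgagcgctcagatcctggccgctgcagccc
The Ptprz1 window has 29 CpG dinucleotides, the Ncan window 9 and the Hapln1 window 3, against a median of 7 over all 32851 windows of the table. A GC box was found in the Ncan and Ptprz1 windows and not in that of Hapln1. Over the 9 windows of the 8 genes (Tnc has 2), 7 held a GC box, as did 35.7% of all windows. The TATA box TATAAA, searched on both strands, was in 3 of the 9 windows (Ncan once and both overlapping windows of Tnc) and in 13.6% of all windows. The E-box CAGCTG was in 2 of the 9, those of Acan and Ncan, and in 16.3% of all windows. The AP-1 motif TGANTCA was in 0 of the 9 and in 7.81% of all windows.

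The matrix genes differed by age in both directions. In adult mice, Ncan, Hapln1, Bcan, Ptprz1 and Tnc were lower than in adolescent mice and Hapln4 was higher, averaged over the 4 treatments. These are 6 of 9 genes called at an adjusted p below 0.05 (edgeR quasi-likelihood test, Benjamini-Hochberg adjusted over the 19332 genes), against 20.3% of all genes tested. Among all genes 9.11% were higher in adults and 11.2% lower, and among these 9 genes 1 was higher and 5 were lower. Without adult antibiotics and saline replicate 2, Tnc was no longer called (adjusted p 0.0626 by edgeR) and the other 5 genes were. The Tnc call was also lost in most of the other fits that left out 1 library, as given below. The median log2 fold change of the 9 genes was -0.15, against 0.0035 over all genes. In tissue RNA, fewer cells of a type and less RNA per cell cannot be told apart.

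Among the lecticans, neurocan, a proteoglycan of developing and adult brain made by neurons and astrocytes, differed most. Ncan had a lowest, median and highest level of 218, 243 and 296 CPM in the 17 adult libraries, against 265, 308 and 338 CPM in the 18 adolescent libraries. All 17 adult libraries lay below the adolescent median, and the ranges overlapped between 265 and 296 CPM. The log2 fold change was -0.26 ± 0.03 (SE; adjusted p 3.71e-08 by edgeR), or 0.835-fold. Bcan, the brevican gene of mature glia and neurons, had 150, 165 and 197 CPM in adult libraries, against 167, 187 and 209 CPM in adolescent libraries. Here 16 of 17 adult libraries lay below the adolescent median, and the log2 fold change was -0.16 ± 0.03 (adjusted p 0.000798 by edgeR).

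Versican, some of whose splice forms belong to the juvenile matrix, did not pass the test. Vcan had 15.2, 17.3 and 19.8 CPM in adult libraries, against 14.3, 18.5 and 38.0 CPM in adolescent libraries. The 38.0 CPM came from the library with high striatal and oligodendrocyte markers, and the log2 fold change was -0.15 ± 0.08 (adjusted p 0.196 by edgeR) with it and -0.07 without it. Acan had 1.92, 2.71 and 3.48 CPM in adult libraries, against 1.33, 2.37 and 3.11 CPM in adolescent libraries. Its log2 fold change was 0.20 ± 0.10 with a 95% interval of -0.01 to 0.40 (adjusted p 0.164 by edgeR), and 14 of 17 adult libraries lay above the adolescent median.

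The link proteins moved in opposite directions. Hapln1, which stabilises the bond of lecticans with hyaluronan and is required for complete nets, had 13.8, 19.6 and 23.8 CPM in adult libraries, against 18.4, 24.4 and 30.6 CPM in adolescent libraries. All 17 adult libraries lay below the adolescent median, with a log2 fold change of -0.33 ± 0.05 (adjusted p 2.72e-06 by edgeR), or 0.796-fold. Hapln4, a link protein known for its association with brevican at inhibitory synapses, had 102, 142 and 160 CPM in adult libraries, against 54.7, 120 and 169 CPM in adolescent libraries. The 54.7 CPM came from adolescent water and saline replicate 1. Without that library, Hapln4 averaged 139 ± 16.5 CPM in adult and 122 ± 15.4 CPM in adolescent libraries (SD, n = 17 each). With it, Hapln4 lay above the adolescent median in 15 of 17 adult libraries. The log2 fold change was then 0.25 ± 0.08 (adjusted p 0.0256 by edgeR), or 1.19-fold. The call was lost without a filter on low counts (adjusted p 0.0731) and kept in all 35 fits that left out 1 library. Among single treatments, Hapln4 was called with water and saline only, where 3 of 3 adult libraries lay above the adolescent median. That number was 4 of 5 with water and morphine, 4 of 5 with antibiotics and saline and 2 of 4 with antibiotics and morphine.

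Within a library, the log2 level of Hapln4 exceeded that of Hapln1 by 2.86 ± 0.22 in adult libraries (SD, n = 17), against 2.27 ± 0.38 in adolescent libraries (SD, n = 18). The difference ranged from 2.38 to 3.25 in adults and from 1.10 to 2.73 in adolescents. The lowest value, 1.10, was again that of adolescent water and saline replicate 1. Bcan relative to Ncan was -0.61 ± 0.14 in adult libraries, against -0.72 ± 0.12 in adolescent libraries, with wide overlap. In the RefSeq order of protein coding genes, Hapln1 neighbours Vcan on chromosome 13 and Hapln4 neighbours Ncan on chromosome 8. The neighbours Hapln4 and Ncan differed by age in opposite directions, 0.25 and -0.26 on the log2 scale.

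**Figure D2:**
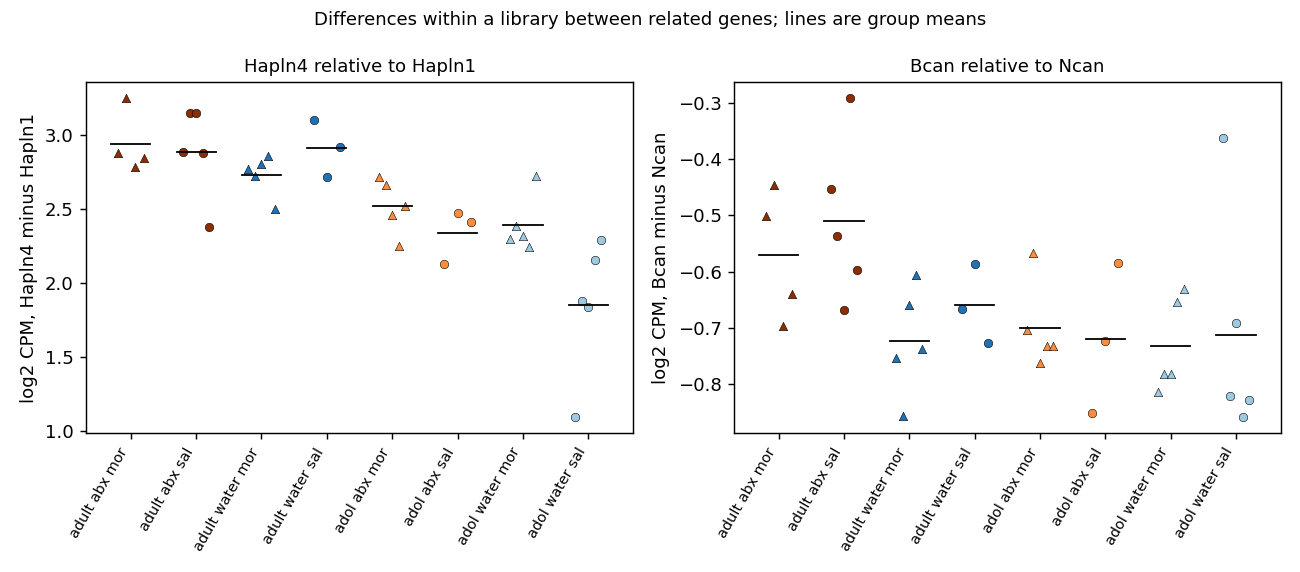
Difference within each library of log2 CPM between Hapln4 and Hapln1 (left y axis) and between Bcan and Ncan (right y axis) in the 8 groups (abbreviations: adol, adolescent; abx, antibiotics; mor, morphine; sal, saline); lines are group means. Hapln4 minus Hapln1 averages 2.86 in adult and 2.27 in adolescent libraries, and the adolescent water and saline group holds the lowest value, 1.10.

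Tnr, which crosslinks lecticans in the adult net, did not pass the test by age. It had 177, 215 and 241 CPM in adult libraries, against 190, 218 and 247 CPM in adolescent libraries, and the 95% interval of the log2 fold change was -0.09 to 0.04. Tnc had 0.880, 1.83 and 2.61 CPM in adult libraries, against 1.40, 2.06 and 6.74 CPM in adolescent libraries. The log2 fold change of Tnc was -0.42 ± 0.15 (adjusted p 0.0439 by edgeR). That call was kept in 10 of 35 fits that left out 1 library. Without adolescent water and saline replicate 1, which held the 6.74 CPM, it was -0.34 (adjusted p 0.0647). Ptprz1 had 135, 162 and 200 CPM in adult libraries, against 148, 176 and 218 CPM in adolescent libraries. Its log2 fold change was -0.10 ± 0.03 (adjusted p 0.0209 by edgeR), and the call was lost without adult water and saline replicate 1 or 5 or adolescent antibiotics and saline replicate 5 (adjusted p up to 0.0637).

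**Figure D3:**
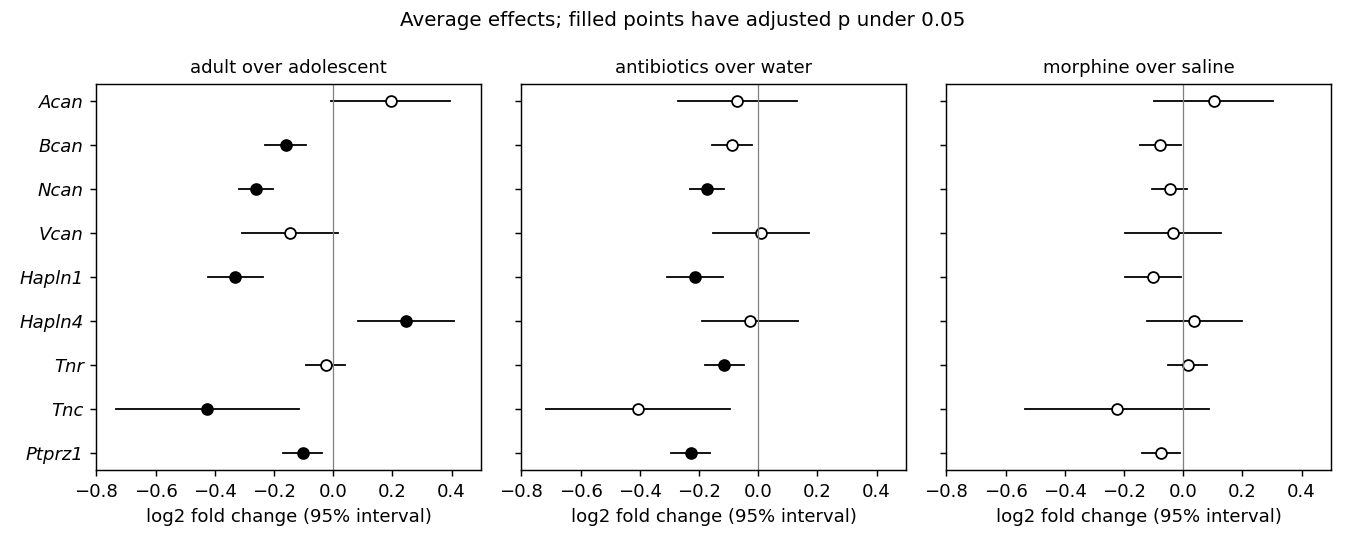
Log2 fold change (x axes) of the 9 genes (y axis) for adult over adolescent, antibiotics over water and morphine over saline, each averaged over 4 strata; lines are 95% intervals and filled points have an adjusted p below 0.05 (edgeR). Age has 6 filled points, 5 of them below 0 and Hapln4 above; antibiotics has 4, all below 0; morphine has 0.

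Treatment by treatment, the age difference of Ncan was widest in mice given antibiotics. With antibiotics and saline, Ncan had 226, 242, 241, 219 and 240 CPM in adult libraries, against 303, 308 and 311 CPM in adolescent libraries. The groups did not overlap, and the log2 fold change was -0.39 ± 0.06 (adjusted p 0.000203 by edgeR). Overlap, here and below, was looked at for the 9 genes only, so the share of all genes without it is not known. Ncan and Hapln1 (-0.37, adjusted p 0.0384) were the 2 of 9 genes called there, against 1.39% of all genes. The Ncan call was kept in all 35 fits that left out 1 library. The Hapln1 call was lost without any 1 of the 3 adolescent libraries, adult replicate 2, 3 or 4 of these groups or adult water and morphine replicate 4 (adjusted p 0.0506 to 0.188).

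With antibiotics and morphine, Ncan had 218, 235, 243 and 238 CPM in adult libraries, against 271, 287, 291, 279 and 311 CPM in adolescent libraries. These groups did not overlap either, with a log2 fold change of -0.30 ± 0.06 (adjusted p 0.00195 by edgeR). Hapln1 was at -0.33 with an adjusted p just under the threshold (0.04997), a call kept in 8 of 35 fits that left out 1 library, while Ncan was called in all 35. These were 2 of 9 genes, against 1.87% of all genes.

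With water and morphine, 0 of 9 genes were called by age, against 0.626% of all genes. Ncan had 263, 295, 283, 277 and 255 CPM in adult libraries, against 321, 309, 306, 318 and 305 CPM in adolescent libraries, again without overlap. Its log2 fold change was -0.18 ± 0.05 (adjusted p 0.103 by edgeR), and 3 of the 9 genes had an unadjusted p below 0.05, as did 2277 of the 19332 genes tested. Hapln1, at 20.2 to 21.4 CPM in adult libraries against 22.5 to 26.7 CPM in adolescent libraries, also had no overlap and did not pass (-0.25, adjusted p 0.185). In this comparison Ncan was called by DESeq2 and by limma-voom, 1 of 9 genes in each, and by edgeR without adolescent water and saline replicate 1 (adjusted p 0.0150), a library of neither group.

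With water and saline, Hapln1 and Hapln4 were called, 2 of 9 genes against 3.39% of all genes. Hapln1 had 18.5, 23.8 and 18.9 CPM in adult libraries, against 25.5, 24.7, 30.6, 26.2 and 24.7 CPM in adolescent libraries. The groups did not overlap, with a log2 fold change of -0.37 ± 0.10 (adjusted p 0.0280 by edgeR). That call was lost without adult replicate 1 or 5 or adolescent replicate 3 (adjusted p up to 0.196). Hapln4 had 160, 157 and 144 CPM in adult libraries, against 54.7, 91.3, 110, 117 and 122 CPM in adolescent libraries. All adult values lay above all adolescent values, and the log2 fold change was 0.64 ± 0.16 (adjusted p 0.0286 by edgeR). Without the 54.7 CPM library it was 0.49 and still called (adjusted p 0.0238), and it was not called without any 1 of the 3 adult libraries or adolescent replicate 2 (adjusted p up to 0.115). Ncan, at -0.16 (adjusted p 0.133), was called without adolescent replicate 1, at -0.21 (adjusted p 0.0118). In the other 3 treatments the log2 fold change of Hapln4 was 0.08 to 0.19 and did not pass. Tnc showed the widest single difference, -1.02 ± 0.31 with water and saline (adjusted p 0.0602 by edgeR), where the adolescent libraries spread over 6.74, 3.23, 5.26, 2.32 and 1.84 CPM. Without the library at 6.74 CPM the Tnc value was -0.67.

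**Figure D4:**
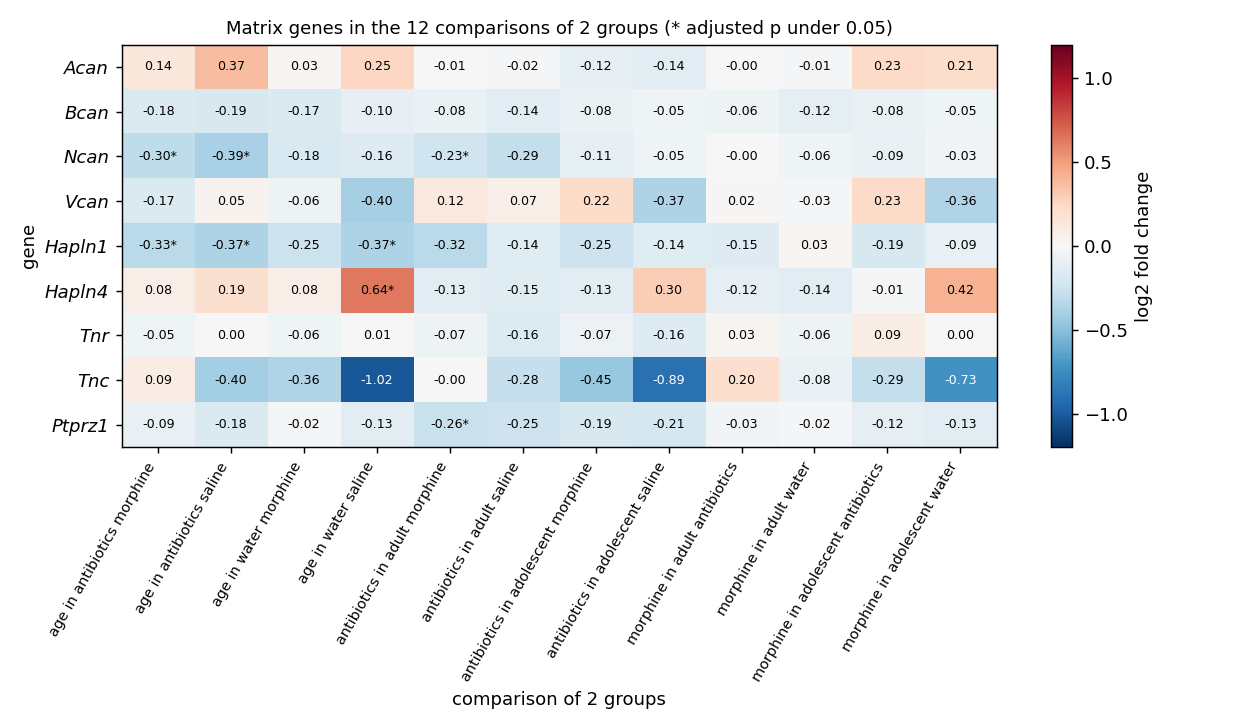
Log2 fold changes (colour and printed value) of the 9 genes (rows) in the 12 comparisons of 2 groups (columns), adult over adolescent, antibiotics over water and morphine over saline; an asterisk marks an adjusted p below 0.05 (edgeR). Hapln1 and Ncan are below 0 in all 4 age columns. In each of the 4 antibiotics columns 8 of the 9 genes are below 0, Ptprz1 among them.

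Other genes of the matrix were counted by age in 4 lists, to be read against the 20.3% of all genes called and the 11.2% called lower. The medians of the lists were -0.02 for further components, 0.00014 for chondroitin sulfate genes, -0.08 for proteases and -0.05 for ligands and receptors, against 0.0035 over all genes. Of 23 further matrix components tested, 6 were lower and 0 higher. Sparc, a glial matrix glycoprotein, averaged 146 ± 25.0 CPM in adult and 182 ± 14.6 CPM in adolescent libraries (log2 fold change -0.35, adjusted p 4.15e-06 by edgeR). Also called were Crtac1 (-0.14), the brain proteoglycan neuroglycan C gene Cspg5 (-0.13) and Spock2 (-0.10). The link protein gene Hapln3 (-0.35) and the pentraxin gene Nptx2 (-0.21, adjusted p 0.0495 by edgeR) made up the rest. Of 21 genes of chondroitin sulfate synthesis and sulfation, 5 were lower and 0 higher. Chst3, a chondroitin 6-sulfotransferase, averaged 2.67 ± 0.527 CPM in adult and 4.04 ± 2.09 CPM in adolescent libraries (log2 fold change -0.55, adjusted p 0.0176 by edgeR). The linker enzymes B3galt6 and B3gat3, the uronyl sulfotransferase Ust and the 4-sulfotransferase Chst11 were the other 4, at -0.09 to -0.22.

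Of 23 matrix proteases, hyaluronidases and inhibitors, 5 were lower and 0 higher. The membrane metalloprotease Mmp15 averaged 14.1 ± 1.85 CPM in adult and 17.7 ± 2.34 CPM in adolescent libraries (log2 fold change -0.32, adjusted p 4.26e-06 by edgeR). Mmp24, Mmp17 and the inhibitors Timp2 and Timp4 were lower by -0.12 to -0.17 on the log2 scale. Of 17 matrix ligands and receptors, 1 was higher and 4 were lower. The endocytic receptor gene Lrp1 averaged 512 ± 36.2 CPM in adult and 433 ± 25.2 CPM in adolescent libraries (log2 fold change 0.25, adjusted p 6.20e-07 by edgeR). The hyaluronan receptor gene Cd44 had the lowest log2 fold change of the list, -0.66, with 1.88 ± 0.524 CPM in adult and 3.05 ± 1.04 CPM in adolescent libraries. The other 3 were Ptprf (-0.20), a receptor of chondroitin sulfate proteoglycans, and the adhesion genes Cntn1 (-0.10) and Ncam1 (-0.11).

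Some markers of cells that make or carry the matrix differed by age as well. Their counts are to be read against the 20.3% of all genes called, 9.11% higher and 11.2% lower. Of 10 oligodendrocyte precursor markers 7 were lower in adults and 0 higher, with Gpr17 at -0.63. Their summed level had a lowest, median and highest value of 225, 247 and 328 CPM in adult libraries, against 269, 304 and 661 CPM in adolescent libraries. Of 12 markers of parvalbumin and other interneurons, 3 were higher and 0 lower, namely Gad1 (0.13), Syt2 (0.40) and Kcnc1 (0.13). The rest of that list, Pvalb itself included, did not pass. Without adolescent water and saline replicate 1, Pvalb was at 0.07 (adjusted p 0.566 by edgeR). The sums of the 12 markers were 997, 1108 and 1135 CPM in adult against 898, 1033 and 1147 CPM in adolescent libraries. Of 10 astrocyte markers, Gja1 alone was lower (-0.16), and the sums were 4013, 4397 and 5083 CPM in adult against 4067, 4423 and 5059 CPM in adolescent libraries. Of 6 microglia markers 4 were lower, as were 2 of 6 markers of excitatory cortical neurons and 1 of 10 vascular markers. Of 10 mature oligodendrocyte and 8 striatal markers 0 passed by edgeR, and the mature oligodendrocyte sums were 1699, 2019.6 and 6061 CPM in adult against 1258, 2853 and 20460 CPM in adolescent libraries. All these markers were among the genes tested. Their part in the age differences of the matrix genes was not tested. With a term for islet hormone reads, the same 6 matrix genes were called by age, and Tnc went to -0.61.

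**Figure D5:**
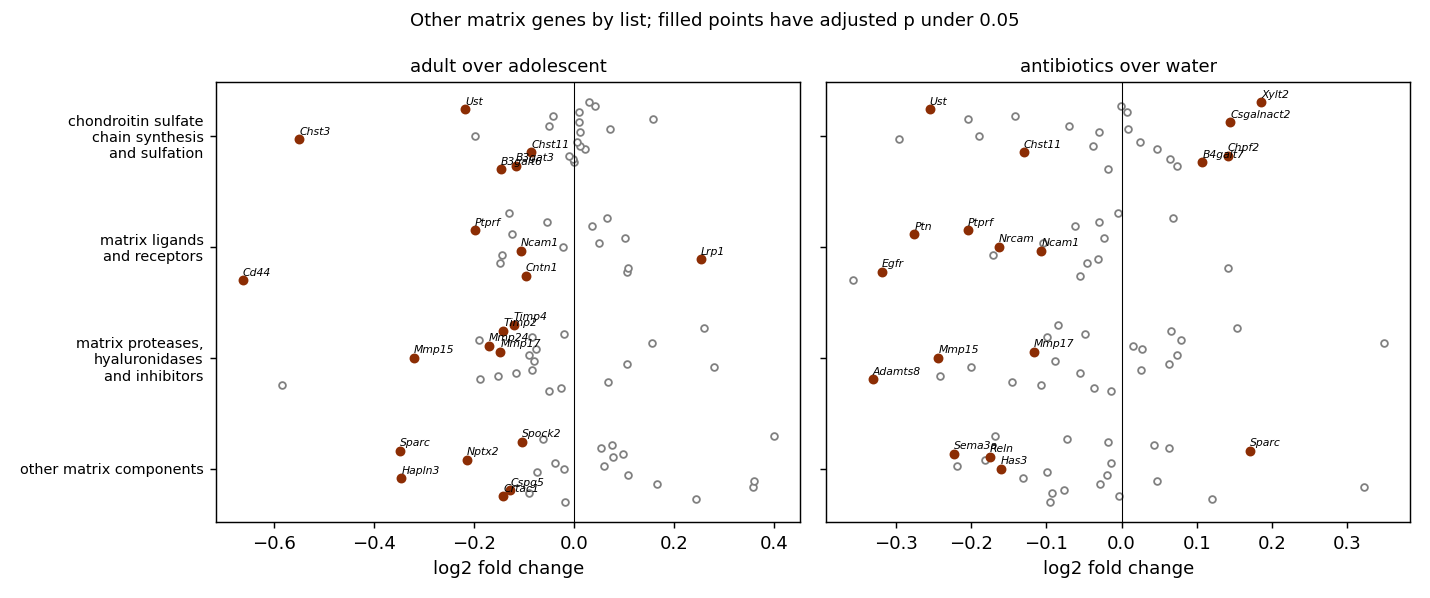
Log2 fold change (x axes) for adult over adolescent (left) and antibiotics over water (right) of each tested gene in 4 lists of further matrix genes (rows); filled, named points have an adjusted p below 0.05 (edgeR). By age 20 of 21 filled points lie below 0, with Lrp1 above; with antibiotics 13 of 18 do.

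Antibiotics went with lower levels of 4 of the 9 matrix genes and higher levels of 0, averaged over age and injection, against 10.2% of all genes called in either direction, 5.05% lower and 5.16% higher. The genes were Ptprz1, Ncan, Hapln1 and Tnr. The median log2 fold change of the 9 genes was -0.11, against -0.0008 over all genes. All 4 calls were kept in each of the 35 fits that left out 1 library and in each of the 8 other settings tried.

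Ptprz1 had 135, 154 and 178 CPM as lowest, median and highest level in the 17 antibiotics libraries, against 162, 180 and 218 CPM in the 18 water libraries. All 17 antibiotics libraries lay below the water median. The log2 fold change was -0.23 ± 0.03 (adjusted p 9.74e-06 by edgeR), or 0.854-fold. By age and drink, Ptprz1 averaged 148 ± 10.02 CPM in adults with antibiotics and 176 ± 12.9 CPM in adults with water (SD, n = 9 and 8). In adolescents it averaged 160.5 ± 9.5 CPM with antibiotics and 186 ± 15.4 CPM with water (SD, n = 8 and 10).

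Ncan had 218, 243 and 311 CPM in antibiotics libraries, against 255, 300.3 and 338 CPM in water libraries, with a log2 fold change of -0.17 ± 0.03 (adjusted p 9.76e-05 by edgeR). In adults, Ncan averaged 234 ± 10.1 CPM with antibiotics and 279 ± 14.7 CPM with water, and the 2 ranges did not overlap. In adolescents it averaged 295 ± 15.2 CPM with antibiotics and 315 ± 21.6 CPM with water. The interaction of age and antibiotics was -0.18 ± 0.06 on the log2 scale with an unadjusted p of 0.00368, and its adjusted p was 0.941, so a difference between the ages did not pass.

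Hapln1 had 13.8, 19.7 and 25.5 CPM in antibiotics libraries, against 18.5, 23.9 and 30.6 CPM in water libraries. Of the 17 antibiotics libraries 14 lay below the water median, and the log2 fold change was -0.21 ± 0.05 (adjusted p 0.00205 by edgeR). Tnr had 177, 213 and 230 CPM in antibiotics libraries, against 208, 225 and 247 CPM in water libraries. Here 15 of 17 lay below the water median, with a log2 fold change of -0.11 ± 0.03 (adjusted p 0.0182 by edgeR). Bcan (-0.09, 95% interval -0.16 to -0.02, adjusted p 0.0916) and Tnc (-0.41, 95% interval -0.72 to -0.10, adjusted p 0.0856) had intervals below 0 and did not pass. The log2 fold changes of Acan (-0.07), Vcan (0.01) and Hapln4 (-0.03) had intervals on both sides of 0. Without adolescent water and saline replicate 1, whose Vcan was at 38.0 CPM, Vcan was at 0.08 (adjusted p 0.218), Hapln4 at -0.07 and Acan at -0.05, and none of the 3 was called.

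In single groups, antibiotics calls among the 9 genes were limited to adults given morphine. There Ncan had 218, 235, 243 and 238 CPM with antibiotics, against 263, 295, 283, 277 and 255 CPM with water (log2 fold change -0.23 ± 0.06, adjusted p 0.0184 by edgeR). Ptprz1 had 138, 140, 153 and 154 CPM with antibiotics, against 168, 186, 184, 179 and 162 CPM with water (-0.26 ± 0.06, adjusted p 0.0193 by edgeR). Neither pair of groups overlapped, and these were 2 of 9 genes, against 1.92% of all genes. Both calls were lost without antibiotics replicate 1 or 2 or water replicate 2 or 3, and that of Ptprz1 also without water replicate 4 (adjusted p up to 0.110). Hapln1 also had no overlap there, 16.3, 13.8, 19.8 and 16.6 CPM with antibiotics against 21.4, 20.8, 20.2, 21.2 and 20.5 CPM with water, and did not pass (adjusted p 0.0576). It passed without antibiotics replicate 3, at -0.42 (adjusted p 0.0114).

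In adults given saline 0 of 9 genes were called, against 0.031% of all genes, with Ncan at -0.29 ± 0.06 (adjusted p 0.0616 by edgeR) and no overlap between 226, 242, 241, 219 and 240 CPM with antibiotics and 271, 296 and 289 CPM with water. An unadjusted p below 0.05 was reached there by 3 of the 9 and 1694 of all genes. Ptprz1 also had no overlap, with 135 to 164 CPM with antibiotics against 166 to 200 CPM with water (-0.25, adjusted p 0.183). Without adolescent water and saline replicate 1 Ncan was called (adjusted p 0.00280), as it was without antibiotics replicate 3 or adult water and morphine replicate 5. In adolescents given morphine 0 of 9 were called, against 1.11% of all genes, and 3 of the 9 and 2448 of all genes had an unadjusted p below 0.05. Ptprz1 there had 155, 158, 152, 164 and 148 CPM with antibiotics, against 183, 177, 170, 180 and 178 CPM with water, without overlap (-0.19 ± 0.06, adjusted p 0.103 by edgeR). Vcan did not overlap either, and was at 19.0, 22.7, 19.4, 21.7 and 18.6 CPM with antibiotics, above 17.3, 17.4, 18.4, 16.2 and 17.7 CPM with water (0.22 ± 0.14, adjusted p 0.560 by edgeR). In adolescents given saline 0 of 9 were called, against 0.0103% of all genes, and 4 of the 9 and 1905 of all genes had an unadjusted p below 0.05. Tnr there had 190, 207 and 213 CPM with antibiotics, below 215, 221, 240, 235 and 225 CPM with water (-0.16 ± 0.07, adjusted p 0.437 by edgeR). DESeq2 called 1 of 9 in adults given saline and 0 of 9 in both adolescent comparisons.

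In the 4 lists of other matrix genes, counts with antibiotics are to be read against the 10.2% of all genes called, 5.05% lower and 5.16% higher. The list medians were -0.06 for ligands and receptors, -0.0012 for chondroitin sulfate genes, -0.07 for further components and -0.05 for proteases, against -0.0008 over all genes. Of 17 ligands and receptors 5 were lower and 0 higher. Ptn, which codes for pleiotrophin, a secreted ligand of the Ptprz1 protein, averaged 260 ± 33.8 CPM with antibiotics and 320 ± 34.4 CPM with water (log2 fold change -0.28, adjusted p 0.000698 by edgeR). Egfr averaged 13.1 ± 1.44 CPM with antibiotics and 16.4 ± 2.21 CPM with water (log2 fold change -0.32, adjusted p 0.000338 by edgeR). Ptprf (-0.20), the adhesion gene Nrcam (-0.16) and Ncam1 (-0.11) were the other 3. Of 21 chondroitin sulfate genes 4 were higher and 2 lower. Xylt2, which starts the chain, averaged 25.9 ± 1.62 CPM with antibiotics and 22.7 ± 1.46 CPM with water (log2 fold change 0.19, adjusted p 0.000595 by edgeR), and Chpf2 (0.14), Csgalnact2 (0.14) and B4galt7 (0.11) were also higher. The sulfotransferase genes Ust (-0.25) and Chst11 (-0.13) were lower.

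Of 23 further matrix components, Sparc was higher (0.17) and the hyaluronan synthase gene Has3 (-0.16), Reln (-0.18) and Sema3a (-0.22), whose protein binds to nets, were lower. Of 23 proteases and inhibitors, 3 were lower and 0 higher, namely Mmp15 (-0.24), Adamts8 (-0.33) and Mmp17 (-0.12). Of 10 astrocyte markers, Aqp4 (-0.46), Slc1a3 (-0.14) and Slc1a2 (-0.12) were lower and Gjb6 (0.28) was higher. The astrocyte sums were 4013, 4193 and 4813 CPM in antibiotics libraries, against 4057, 4532 and 5083 CPM in water libraries. Of 6 microglia markers 5 were lower, with a median sum of 238 CPM in antibiotics libraries against 267 CPM in water libraries. Of the other markers, Neurod2 (0.16) and Tbr1 (0.13) of 6 for excitatory cortical neurons were higher. Lhx6 (0.14) of 12 for parvalbumin and other interneurons was higher, and C1ql1 (-0.19) of 10 for oligodendrocyte precursors was lower. Of 10 mature oligodendrocyte, 8 striatal and 10 vascular markers 0 passed by edgeR. Without adolescent water and saline replicate 1, Lhx6 and C1ql1 did not pass, while the striatal marker Ppp1r1b (0.40, adjusted p 7.79e-05) and the interneuron marker Gad1 (0.08) were higher and the vascular marker Flt1 (-0.14) and the microglia marker P2ry12 (-0.13) were lower. The part of these markers in the antibiotics differences of the matrix genes was not tested.

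Morphine calls included 0 of the 9 matrix genes, averaged over the 4 strata, against 0.316% of all genes. Ptprz1 (-0.07), Bcan (-0.08) and Hapln1 (-0.10) had an unadjusted p below 0.05, as did 2120 of the 19332 genes tested, with adjusted p values of 0.362, 0.381 and 0.397 by edgeR. DESeq2 and limma-voom also called 0 of 9. The 95% intervals of the log2 fold change were -0.10 to 0.01 for Ncan, -0.05 to 0.08 for Tnr, -0.12 to 0.20 for Hapln4 and -0.53 to 0.09 for Tnc. Ncan had 218, 283 and 321 CPM in the 19 morphine libraries, against 219, 292 and 338 CPM in the 16 saline libraries.

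Within single groups, morphine calls again held 0 of 9 genes. The background was 0.331% of all genes in adolescents on water, 0.0466% in adolescents on antibiotics, and 0 genes in adults on water and in adults on antibiotics. In adolescents on water, 4 of the 9 and 2249 of all genes had an unadjusted p below 0.05. Hapln4 there had 118, 119, 128, 127 and 169 CPM with morphine, against 54.7, 91.3, 110, 117 and 122 CPM with saline (log2 fold change 0.42 ± 0.14, adjusted p 0.205 by edgeR). Without the library at 54.7 CPM the Hapln4 value was 0.26 (adjusted p 0.361). In adolescents on antibiotics, Tnr did not overlap, with 214 to 221 CPM with morphine against 190 to 213 CPM with saline, and was not called (0.09, adjusted p 0.813 by edgeR). How many of all genes had no overlap in that comparison was not counted. DESeq2 called 0 of 9 in each of these 4 comparisons. Of the 3 interactions, 0 of 9 genes passed in any by edgeR, against 0.00517%, 0% and 0.00517% of all genes for age by morphine, age by antibiotics and antibiotics by morphine. An unadjusted p below 0.05 was reached by 1, 1 and 0 of the 9 genes and by 1222, 950 and 1041 of all genes, and 0 of 9 passed with DESeq2. The age by morphine interaction of Hapln4 was -0.33 ± 0.16 with an unadjusted p of 0.0435 and an adjusted p of 0.770 by edgeR.

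Some genes followed the matrix genes closely over 34 libraries, leaving out adolescent water and saline replicate 1, in a search of 13391 genes by Pearson correlation of log2 CPM. The libraries share age and treatment, so the values describe these samples and carry no test. Ncan was closest to Arhgap33 (r = 0.91), the synaptic scaffold gene Dlg2 (0.91) and the glutamate receptor gene Grin3a (0.90). Hapln1 was closest to Mmd2 (0.92). Hapln4 was close to Atp2b2, a calcium pump gene (0.90), and Nat8l, which codes for the enzyme that makes N-acetylaspartate (0.88). Ptprz1 was closest to the glial transporter gene Slco1c1 (0.91), Aqp4 (0.87) and the glutamate receptor gene Grm3 (0.87). Tnr was closest to Sptbn1 (0.79) and Bcan to the astrocyte gene Aldh1l1 (0.78). Acan (0.68 at most, with a Spearman correlation of 0.49), Vcan (0.63) and Tnc (0.72) had no gene as close. Acan and Tnc had low levels, with medians of 2.71 and 1.83 CPM in adult libraries. The part of low counts in their lower correlations was not tested.

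Within groups, after the group means were taken out, the 36 pairs of the 9 genes were compared over the same 34 libraries. Ncan and Tnr were the 1 pair that passed, with Pearson's r = 0.60 (permutation p 0.00044, adjusted p 0.0158) and Spearman's rho = 0.60 (permutation p 0.00128, adjusted p 0.0461). Without the 2 libraries farthest from the median of Ncan, r was 0.53. Hapln1 and Ptprz1 came next, with r = 0.51 (permutation p 0.0108, adjusted p 0.194), and did not pass.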

How the data were processed

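The deposited table holds the authors' raw read counts per gene, with column names in the form of STAR's gene counts. STAR 2.7.10a, DESeq2 and the mm10 build are named in the submitters' processing notes. The RNeasy Mini kit and the ABclonal Fast RNA-seq Library Prep Kit V2 were used, per the labels' protocols. Which strand was counted, and from which annotation release, is not stated there. Without this, reads of Tnr, Tnc, Vcan and Hapln1 cannot be told apart from those of genes annotated on the opposite strand.

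Symbols came from GENCODE M21 and matched 52073 identifiers. For 52036 of these the version number is higher in the table. The 4907 unmatched identifiers hold 3.86% of counts. Lengths are the union of GENCODE M21 exons.

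Libraries under 1000000 counts were left out. Counts were fitted in R 4.3.3 with edgeR 4.0.16 (TMM, filterByExpr on 8 groups, robust quasi-likelihood, a mean per group, 35 libraries), with Benjamini-Hochberg adjustment over 19332 genes in each contrast and a threshold of 0.05. CPM use TMM-scaled totals, and log2 CPM a prior count of 2. Intervals have a level of 95%. Correlations used 100000 permutations. Scripts were tested on simulated counts. Alternatives were DESeq2 1.42.0, its size factors, limma-voom (limma 3.58.1), no filter, other sets of libraries, a replicate block and, added after seeing the data, an islet read term. The 9 genes are named in every contrast. List genes are named where they passed, those with levels by smallest p. The genes and lists were chosen with earlier results of these data known.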

Additional observations from a re-analysis of the deposited data

Results flagged for a closer look

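In 54 sets of 4 or 5 libraries (each of the 9 genes in each group of that size), 4 had a library far from the others of its group by Dixon's ratio of gap to range, where chance alone marks about 1 in 20, or 5%. Ncan in adolescent water and saline replicate 1 was at 264.8 CPM, below the 320 to 338 CPM of the other 4 libraries. Vcan in the same library was at 38.0 CPM, above 16.4 to 18.7 CPM. In that library the oligodendrocyte precursor markers summed to 661 CPM, the mature oligodendrocyte markers to 20460 CPM and the striatal neuron markers to 1731 CPM, and their part in the Ncan and Vcan values was not tested. Hapln1 in adolescent water and saline replicate 3 was at 30.6 CPM, above 24.7 to 26.2 CPM. That library had the highest sums of its group for astrocytes (5059 CPM), excitatory neurons (6858 CPM), vascular cells (370 CPM) and microglia (326 CPM). Its sums for interneurons (898 CPM), striatal neurons (195 CPM) and mature oligodendrocytes (1258 CPM) were the lowest of the group. The part of these markers in the Hapln1 value was not tested. Hapln4 in adolescent water and morphine replicate 5 was at 168.9 CPM, above 118 to 128 CPM.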

How the results depend on the processing

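No result reversed. By age, Ncan, Hapln1 and Bcan were called in every fit tried on the average over treatments, and with antibiotics Ptprz1, Ncan, Hapln1 and Tnr were. Among single groups, the age comparison with water and saline called 2 of 9 genes, but 1 with no filter on low counts and 0 when only those 2 groups were fitted. With water and morphine it called 0, but 1 without adolescent water and saline replicate 1 (34 libraries), with DESeq2 and with limma-voom. With antibiotics and saline it called 2, but 1 with all 37 libraries. With antibiotics and morphine it called 2, but 1 with all 37 libraries, with DESeq2 size factors and with only the 2 groups. The antibiotics comparison in adolescents given morphine called 0, but 1 with limma-voom and with only the 2 groups. In adults given saline it called 0, but 1 in 34 libraries, with DESeq2, with no filter and with the replicate block, and 2 with limma-voom. The cause was not tested. Leaving out 1 library at a time gave 4 to 6 calls for the average age difference and 4 to 5 for antibiotics. It gave 0 to 3 for age with water and saline, 0 to 1 with water and morphine, 1 to 2 with antibiotics and saline and 1 to 2 with antibiotics and morphine. It gave 0 to 3 for antibiotics in adults given morphine, 0 to 1 in adults given saline, 0 to 1 for morphine in adolescents on water, and 0 elsewhere. Replicate numbers gave no clear pairing of the libraries. Of 108 pairs with the same number, 14 had deviations correlated above 0.1, and 10 of 35 libraries correlated best with their own number. The mean correlation was 0.0033 for the same number and -0.00049 for different numbers. Shared handling not marked by these numbers was not tested. With the replicate block, 5 of 9 genes were called by age and 4 by antibiotics. A gene that did not pass may still differ by an amount inside its interval, and single groups held only 3 to 5 libraries.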
